A study of Mus musculus with 2 samples.

Results

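Imprinted genes are transcribed mainly from the copy inherited from 1 parent, and 10 of them were followed in mouse embryonic stem cells (ESCs): Peg3, Peg10, Mest, Plagl1, Impact, Nnat and Sgce, known as paternally expressed, and Grb10, Igf2r and Zim1, known as maternally expressed. The genes were chosen by symbol as well known imprinted genes, with earlier results of these data known. All 10 were found among the 24532 genes of the deposited table. RNA-seq of polyadenylated RNA compared E14 cells, an established male mouse ESC line with wild-type Sox2 grown in serum and leukemia inhibitory factor (LIF), with E14-Sox2TA/WT cells. The latter are E14 cells in which 1 allele of Sox2 was edited by CRISPR/Cas9, with a donor of single-stranded DNA, so that threonine 258 became alanine (T258A), which removes a site of O-GlcNAc, a sugar attached to serine or threonine. They came from single sorted cells, were selected and kept in serum and LIF with 2i added (PD0325901 against Mek and CHIR99021 against Gsk3), and were used some passages after 2i was withdrawn. Each genotype had 1 library, so that genotype, clone and culture history cannot be told apart and no difference below has a replicate check or a test.

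Imprinted genes carry DNA methylation that is set differently in the egg and the sperm, at control regions that often lie over a promoter. After fertilization these marks are guarded by zinc finger proteins such as Zfp57 and by the maintenance methyltransferase Dnmt1, and many imprinted genes act on fetal growth, the placenta and metabolism. Cultured ESCs are known to lose or gain such marks at some loci. The parental allele of a transcript was not visible in these values, which count all reads of a gene together, so only the total output of each gene is described.

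Levels are given in TPM, the transcript abundance scaled for length and for the sum of the library, which can be set side by side between genes. The library totals were 60263536 reads in E14 and 44609228 in E14-Sox2TA/WT cells. Log2 ratios are of TPM (E14-Sox2TA/WT over E14), and those of the members are followed by their 95% interval from the exact Clopper-Pearson method on the read counts. These intervals hold counting error only, and the spread between cultures is not in them. They take each read as a separate molecule, so PCR copies would make them too narrow even for counting error.

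The sequences just upstream of the members' starts are shown for Peg3, Nnat, Plagl1 and Grb10, which differed more than 2-fold, and for Mest, whose stretch holds the motif that was searched. They were taken from RefSeq promoter windows on GRCm38.p6, which were used for 7 of the 10 genes. Peg10 and Sgce had no window there, and Impact was left out of the search. The sequences cover the bases before the start outside annotated exons, 5′ to 3′ on the strand of the gene. Capitals mark the 6-base core of the motif known to be bound by Zfp57 in its methylated form, TGCCGC, or its reverse complement, GCGGCA. Peg3 lies at chr7:6730463-6730558 on the minus strand, Nnat at chr2:157560008-157560077 on the plus strand, Plagl1 at chr10:13090582-13090690 on the plus strand, Mest at chr6:30737800-30738049 on the plus strand and Grb10 at chr11:12037429-12037670 on the minus strand.
Peg3: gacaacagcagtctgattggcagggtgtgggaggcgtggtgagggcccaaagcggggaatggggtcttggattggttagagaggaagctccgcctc
Nnat: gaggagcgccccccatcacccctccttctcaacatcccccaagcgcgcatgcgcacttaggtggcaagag
Plagl1: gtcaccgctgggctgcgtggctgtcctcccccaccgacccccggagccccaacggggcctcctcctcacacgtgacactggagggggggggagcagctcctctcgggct
Mest: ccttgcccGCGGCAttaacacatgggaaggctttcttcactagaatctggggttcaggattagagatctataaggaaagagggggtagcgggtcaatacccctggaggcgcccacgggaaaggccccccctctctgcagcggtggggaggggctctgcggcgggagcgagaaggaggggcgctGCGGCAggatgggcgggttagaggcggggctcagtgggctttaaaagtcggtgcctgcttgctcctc
Grb10: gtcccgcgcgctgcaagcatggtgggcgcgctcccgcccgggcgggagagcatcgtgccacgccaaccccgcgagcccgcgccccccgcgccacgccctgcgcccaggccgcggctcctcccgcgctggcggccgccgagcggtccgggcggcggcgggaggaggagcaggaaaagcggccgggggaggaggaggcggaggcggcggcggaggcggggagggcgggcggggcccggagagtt
The Peg3 stretch is the whole gap of 96 bases between Peg3 and Usp29, which start back to back on opposite strands. The Mest stretch lies before a start inside the gene and was chosen because it holds the motif. The Mest window at the outermost start (chr6:30733256-30733555) does not hold it.

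In the full windows of 300 bases (250 before to 50 after the start), the motif was found on either strand in 6 of the 10 windows that the 7 genes have, against 11.6% of all 32851 windows in the table. Among the 6 are a pair of Mest windows with starts 3 bases apart that hold the same sites, so they are not separate matches. The 6 windows belong to Mest, Nnat, Plagl1, Zim1 and Grb10, and the windows of Peg3 and Igf2r do not hold these letters. CpG dinucleotides, the sites that carry the methyl marks, numbered from 8 in a Mest window to 45 in a Grb10 window, and all 10 windows lay above the median of 7 over the whole table. The motif itself holds a CpG, and the share over all windows was not matched for CpG or GC content. The shares therefore do not show that the motif is more frequent at these genes than at other windows of like composition. A match describes the letters in a window and is not a measured binding site. Genes higher and lower in E14-Sox2TA/WT cells were both among those with the motif.

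All 7 paternally expressed genes had a higher TPM in E14-Sox2TA/WT than in E14 cells, by 1.52-fold for Sgce to 7.91-fold for Peg10, with a median log2 ratio of 1.32. The 3 maternally expressed genes did not share a direction. Igf2r was higher, Grb10 was lower and Zim1 was near its E14 level. Over the 13269 genes whose mean TPM reached 1, the median log2 ratio was 0.04 and 53.2% of genes were higher. Summed over its members, the paternally expressed group went from a TPM of 321.7 to 976.0, and the maternally expressed group from 51.1 to 52.1. Peg10 alone supplied the greater share of the paternal difference.

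**Figure D1:**
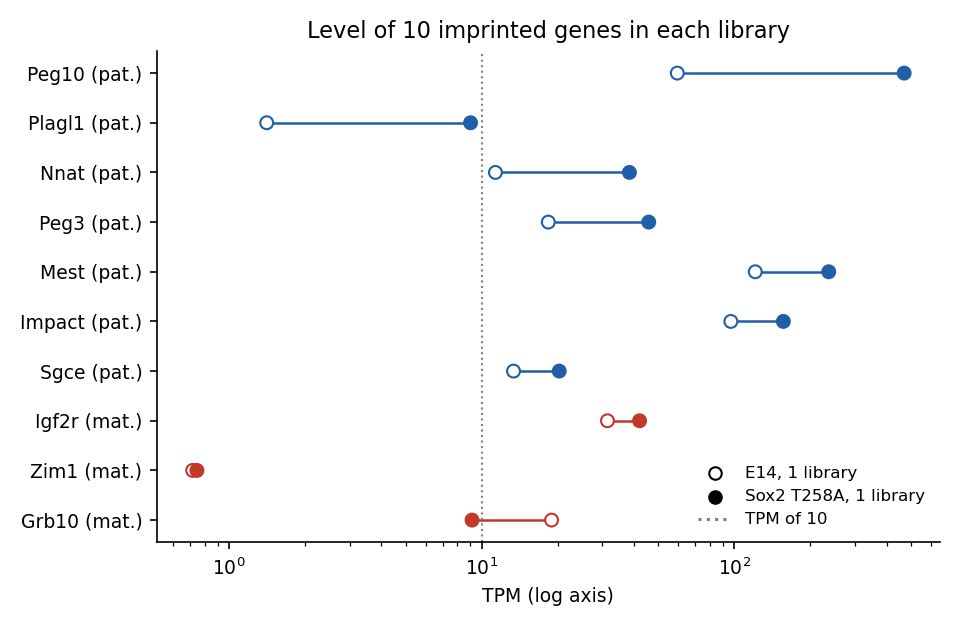
TPM of each of the 10 imprinted genes in E14 and in E14-Sox2TA/WT cells (marked Sox2 T258A, filled points), on a log axis, 1 library each, with paternally and maternally expressed genes in separate colours. Peg10 went from 59.4 to 469.9 and was the highest of the 10 in E14-Sox2TA/WT cells, whereas Mest led in E14 at 120.9.

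A gene counted as higher or lower when its TPM differed more than 2-fold and reached 10 in at least 1 library. Of the 9094 genes that reached this level, 4.17% were higher and 4.07% lower. Among the 7 paternally expressed genes, 6 reached it, of which Peg10, Nnat and Peg3 were higher and 0 were lower. Plagl1, at a larger ratio than Nnat and Peg3, stayed under a TPM of 10 in both libraries. Of the 3 maternally expressed genes 2 reached the level, Grb10 only through its E14 value, and Grb10 was counted as lower while Igf2r was not past 2-fold. Over the 10 genes together, 3 of the 8 that reached the level were higher and 1 was lower.

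Peg10, a retrotransposon-derived gene needed for the placenta, lies on chromosome 6 (4747306 to 4760517, plus strand) with Entrez gene ID 170676. Its TPM was 59.4 in E14 and 469.9 in E14-Sox2TA/WT cells, from 12481 and 66105 reads. The log2 ratio was 2.98 (2.96 to 3.01), the 15th highest of the 9094 genes. In E14-Sox2TA/WT cells Peg10 alone took 0.148% of all reads, against 0.0207% in E14, and its place among all genes by TPM moved from 2863 to 280. The ratio stayed between 2.68 and 2.98 under the scalings tried, pseudocounts aside.

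Sgce, which encodes epsilon-sarcoglycan of the muscle and brain membrane complex, lies head to head with Peg10 on chromosome 6 (4674350 to 4747204, minus strand, Entrez gene ID 20392). The starts of the 2 genes are separated by 101 bases, and both are known to be governed by the same control region. Sgce had a TPM of 13.4 in E14 and 20.3 in E14-Sox2TA/WT cells, a log2 ratio of 0.60 (0.45 to 0.75) from 719 and 733 reads. The pair therefore moved unequally. For each Sgce read there were 17.4 Peg10 reads in E14 and 90.2 in E14-Sox2TA/WT cells, a log2 difference of 2.38 (2.23 to 2.53) that does not depend on library depth.

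Peg3 encodes a zinc finger protein that acts in maternal behaviour and growth, and lies on chromosome 7 (6703892 to 6730462, minus strand, Entrez gene ID 18616). Its TPM was 18.3 in E14 and 45.8 in E14-Sox2TA/WT cells, from 3827 and 6405 reads, a log2 ratio of 1.32 (1.26 to 1.38). Once the trend of the ratio with GC content and length was taken out, Peg3 stood at 0.88, under 2-fold. Usp29, its paternally expressed partner across the gap of 96 bases shown above, went the other way, from a TPM of 1.79 to 0.772, at a log2 ratio of -1.21 (-1.51 to -0.92). Peg3 gave 9.0 reads for each Usp29 read in E14 and 52.1 in E14-Sox2TA/WT cells. Peg3 and Usp29 thus differed in direction although their starts adjoin.

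Zim1, a maternally expressed zinc finger gene of the same cluster (chromosome 7, 6674444 to 6696540, minus strand, Entrez gene ID 22776), was scarce, with 80 reads in E14 and 56 in E14-Sox2TA/WT cells. Its TPM was 0.718 and 0.746, and the log2 ratio of 0.06 (-0.46 to 0.57) did not settle a direction. Its sign turned under some scalings, down to -0.48. A difference in Zim1 was not detectable at this depth.

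Plagl1 (Zac1), a zinc finger regulator of other imprinted genes, lies on chromosome 10 (13090832 to 13131694, plus strand, Entrez gene ID 22634). Its TPM was 1.41 in E14 and 9.03 in E14-Sox2TA/WT cells, a log2 ratio of 2.68 (2.47 to 2.89) from 234 and 1003 reads. Plagl1 was therefore the second most different member, at low levels in both libraries. Ltv1, the nearest gene whose mean TPM reached 1 (46902 bases away), had a ratio of 0.21, and Plagl1 gave 0.0415 reads per Ltv1 read in E14 and 0.230 in E14-Sox2TA/WT cells.

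Nnat encodes neuronatin, a small membrane protein of the endoplasmic reticulum, and lies on chromosome 2 (157560078 to 157562525, plus strand, Entrez gene ID 18111) within an intron of Blcap. Its TPM was 11.3 in E14 and 38.4 in E14-Sox2TA/WT cells, from 440 and 1000 reads, a log2 ratio of 1.76 (1.6 to 1.93). Blcap, which is transcribed in the opposite direction across the same interval, had a ratio of 0.05, so that Nnat reads per Blcap read went from 0.248 to 0.814. Because the handling of strand in the counts is not given in the sources used here, reads of genes that overlap on opposite strands cannot be told apart, which touches Nnat and Blcap, Mest and Copg2, and Igf2r and Airn.

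Mest, a member of the alpha/beta hydrolase family linked to fetal growth, lies on chromosome 6 (30733506 to 30748466, plus strand, Entrez gene ID 17294). Its TPM was 120.9 in E14 and 236.3 in E14-Sox2TA/WT cells, from 9796 and 13182 reads. The log2 ratio was 0.97 (0.93 to 1.0), or 1.95-fold (1.90 to 2.01), just under the threshold. Copg2, whose end overlaps that of Mest by 913 bases, had a log2 ratio of -0.28. Mest reads per Copg2 read were 1.51 and 3.67, respectively.

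Impact, which lies on chromosome 18 (Entrez gene ID 16210), encodes an inhibitor of the kinase Gcn2 (Eif2ak4), the sensor of amino acid shortage. Its TPM was 96.8 in E14 and 156.2 in E14-Sox2TA/WT cells, a log2 ratio of 0.69 (0.65 to 0.73) from 10468 and 11317 reads. The genes on this chromosome had a median ratio 0.10 above that of all genes, less than the difference at Impact. Eif2ak4 itself had a log2 ratio of 0.24.

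Grb10 encodes an adaptor that restrains signalling from the insulin and insulin-like growth factor (IGF) receptors and is expressed from the maternal copy in most tissues and from the paternal one in neurons. It lies on chromosome 11 (11930499 to 12037428, minus strand, Entrez gene ID 14783). Its TPM was 18.9 in E14 and 9.16 in E14-Sox2TA/WT cells, from 3022 and 984 reads. The log2 ratio of -1.05 (-1.15 to -0.94) corresponds to 2.06-fold lower (1.92 to 2.22), so its interval reaches to under 2-fold. Grb10 reads per read of Ddc, the gene 32354 bases away, were 5.64 in E14 and 2.93 in E14-Sox2TA/WT cells, and the other neighbours of Grb10 within 250 kb whose mean TPM reached 1, Cobl and Fignl1, had ratios of -0.37 and -0.19.

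Igf2r encodes the receptor that removes IGF2 from the cell surface and sorts lysosomal enzymes, and lies on chromosome 17 (12682406 to 12769706, minus strand, Entrez gene ID 16004). Its TPM was 31.4 in E14 and 42.1 in E14-Sox2TA/WT cells, from 8845 and 7943 reads, a log2 ratio of 0.42 (0.38 to 0.47). The size depended on the scaling and was 0.09 at the lowest. Airn, the paternal antisense transcript that silences Igf2r in many tissues, had 11 reads in E14 and 9 in E14-Sox2TA/WT cells.

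**Figure D2:**
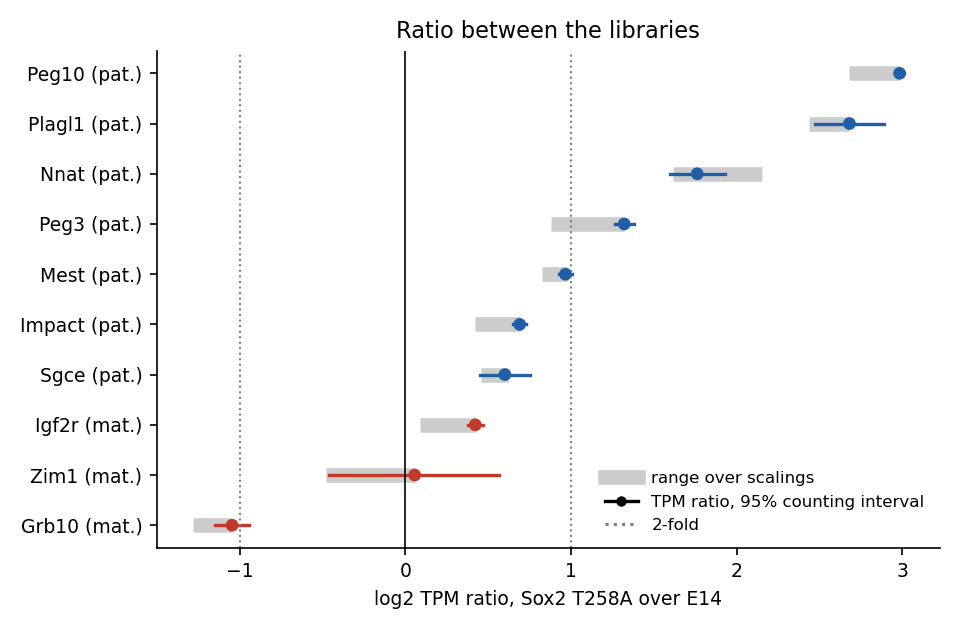
Log2 ratio of TPM (E14-Sox2TA/WT over E14) of the 10 imprinted genes, with 95% counting intervals as bars and the range over other scalings of the ratio as grey bands. The intervals of Peg10, Plagl1, Nnat and Peg3 lie wholly past 2-fold higher, and those of Mest and Grb10 include 2-fold.

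The order of the levels changed between the libraries. In E14 the members ran from Mest, Impact, Peg10 and Igf2r down to Grb10, Peg3, Sgce and Nnat, with Plagl1 and Zim1 last. Grb10 at 18.9 (18.2 to 19.6, exact Poisson interval) and Peg3 at 18.3 (17.8 to 18.9) were neighbours whose counting intervals overlapped. In E14-Sox2TA/WT cells Peg10 came first, and Peg3 at 45.8 stood above Igf2r at 42.1, which had been the higher of the pair in E14. Grb10 at 9.16 (8.59 to 9.75) and Plagl1 at 9.03 (8.48 to 9.61) overlapped there. Grb10 had exceeded Plagl1 by far in E14, at 18.9 against 1.41.

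The other imprinted genes on the lists had medians nearer to that of all genes than the paternal members had. These lists hold genes imprinted in at least 1 tissue, and whether each is imprinted in ESCs was not tested. They do not cover all imprinted genes, such as those of the Dlk1-Meg3 and H19-Igf2 regions. Of 11 further paternally expressed genes whose mean TPM reached 1, 6 were higher and 5 lower, with a median log2 ratio of 0.02 (0.04 over all genes) that turned to -0.12 at the lowest scaling. Peg13, a noncoding RNA, was the highest at 2.17 (1.86 to 2.50), from a TPM of 0.725 to 3.27, and Usp29 was the lowest. Both stayed under a TPM of 10 in both libraries. Only Zdbf2 of the 7 that reached a TPM of 10 was past 2-fold, from 9.81 to 30.7. It reached that level only through its E14-Sox2TA/WT value. Among all 9094 genes at that level, 4.17% were higher and 4.07% lower. Of 11 further maternally expressed genes, 4 were higher and 7 lower, with a median of -0.09. By FPKM the counts were 4 higher and 7 lower for either parent, and with GC content and length taken into account 4 of the paternal and 5 of the maternal genes were higher. Ppp1r9a, which encodes an actin-binding neurabin and lies in the Peg10 domain, was the highest at 1.66 (1.57 to 1.75), and Slc22a18, a transporter gene, the lowest at -2.06.

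With the members whose mean TPM reached 1 included (all but Zim1), 18 paternally expressed genes had 13 higher and 5 lower and a median of 0.65, and 13 maternally expressed genes had 5 higher and 8 lower and a median of -0.09. Of the 13 paternally expressed genes that reached a TPM of 10, 4 were more than 2-fold higher and 0 lower. Of the 11 maternally expressed genes that did, 1 was higher and 1 lower. The shares over all 9094 genes at that level were 4.17% higher and 4.07% lower. Zdbf2 and Ppp1r9a, both counted as higher here, reached a TPM of 10 only through their E14-Sox2TA/WT values. The pooled paternal values rest on the 7 members, all higher, which supplied 3 of the 4 past 2-fold. Members were chosen with earlier results of these data known. Without them, the paternal genes had 6 higher and 5 lower and a median of 0.02. The retrogenes among the paternal genes, Mcts2 and Zrsr1, share sequence with their parent copies, and their counts are uncertain.

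**Figure D3:**
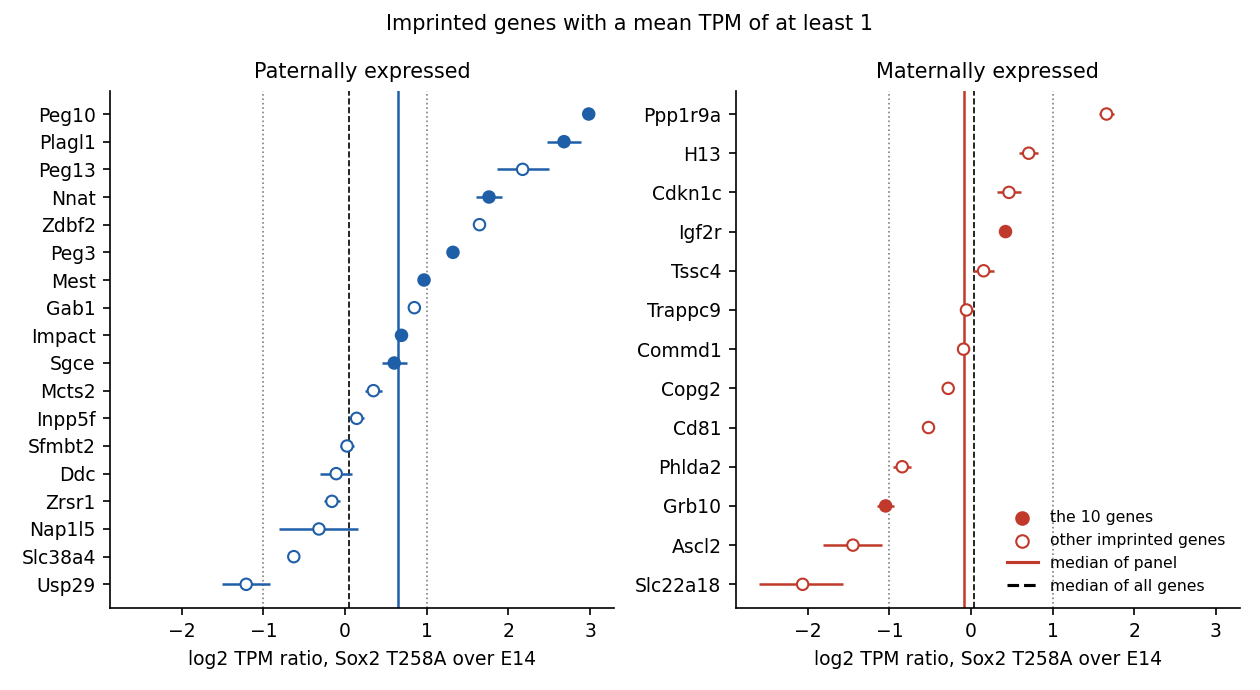
Log2 ratio of TPM (horizontal axis, E14-Sox2TA/WT over E14) of paternally (left) and maternally (right) expressed imprinted genes whose mean TPM reached 1, with 95% counting intervals, filled points for 9 of the 10 members (Zim1 was under that level), open points for other genes imprinted in at least 1 tissue, and lines for the 2-fold limits and medians. All 7 paternal members lie above 0, whereas the other paternal genes spread over both sides, from Usp29 at -1.21 to Peg13 at 2.17.

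The genes around the members did not share a direction. Within 250 kb of a member lay 30 other genes whose mean TPM reached 1, and 17 were higher and 13 lower, with a median log2 ratio of 0.04. More than 2-fold higher, at a TPM of 10 or above in at least 1 library, were Ppp1r9a and Utrn (utrophin). Utrn stood at 1.82 and lies 220943 bases from Plagl1, and Acat3 near Igf2r was past 2-fold lower at -1.41. Ppp1r9a reached that TPM only in E14-Sox2TA/WT cells and Acat3 only in E14. Of all 9094 genes at that level, 4.17% were higher and 4.07% lower, and the share among neighbours at that level was not taken. Near Peg10 and Sgce both expressed neighbours, Ppp1r9a and Casd1 (0.49), were higher. Near Grb10 the 3 expressed neighbours were all lower, but by less than Grb10. Near Mest, Nnat and Impact the neighbours' medians were -0.12, -0.08 and -0.57, against positive ratios of the members themselves. Near Plagl1 4 of 5 neighbours and near Igf2r 6 of 8 were higher, as the members were, with medians of 0.21 and 0.32. Farther than 250 kb from Peg10 and Sgce lie the low-count genes Asb4, Calcr and Tfpi2 of the maternally expressed list. Asb4 and Calcr went from 2 and 6 reads in E14 to 55 and 52 reads, at log2 ratios of 5.38 (3.46 to 8.46) and 3.66 (2.44 to 5.17). Tfpi2, which lies between Calcr and Sgce, had 4 and 2 reads, a log2 ratio of -0.28 (-3.75 to 2.52).

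**Figure D4:**
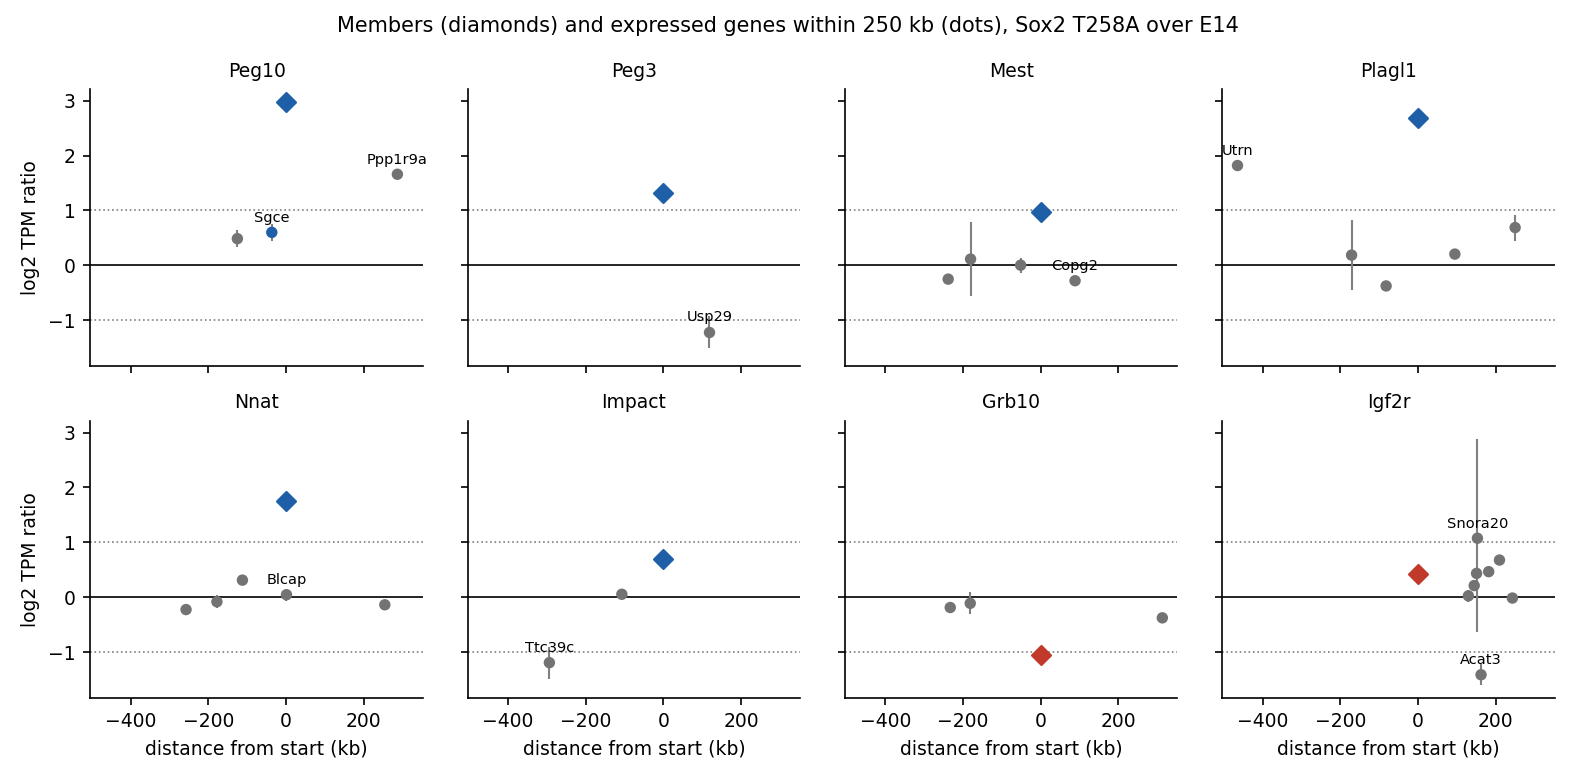
Log2 ratio of TPM of expressed genes within 250 kb of the members, plotted at the distance in kb of their centre from the member's start, along the chromosome, with the member as a diamond at 0 and 95% counting intervals as bars. Past the dotted 2-fold lines lie Ppp1r9a, Utrn and Acat3, and, at a TPM under 10 in both libraries, Snora20, Usp29 and Ttc39c.

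Factors that keep imprints had a lower median ratio than the paternal members. Of 8 such genes, 7 had a higher and 1 a lower TPM, with a median log2 ratio of 0.43, and 0 passed 2-fold. All 8 reached a TPM of 10, the level at which 4.17% of the 9094 genes were higher and 4.07% lower. Dppa3 (Stella), which protects maternal methylation in the zygote, was the highest at 0.98 and reached 1.10, past 2-fold, under another scaling, and the histone methyltransferase Setdb1 the lowest at -0.02. Dnmt1 and its partner Uhrf1 stood at 0.43 and 0.42. Zfp57, whose motif core is marked in the sequences, had a TPM of 422.1 in E14 and 440.4 in E14-Sox2TA/WT cells, a log2 ratio of 0.06 whose sign turned with the scaling (-0.12 to 0.17).

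Genes of insulin and IGF signalling, on which Grb10 and Igf2r act, were listed together with the Igf2bp genes, which encode proteins that bind Igf2 mRNA and are not part of the receptor pathway. Of the 11 expressed genes of the list, 3 of them Igf2bp genes, 9 were higher and 2 lower, with a median of 0.79. Of the 10 that reached a TPM of 10, 4 were more than 2-fold higher (Irs2, Igfbp3, Igf1r and Igf2bp3) and 0 lower. Over all 9094 genes at that level, 4.17% were higher and 4.07% lower. Irs2 and Igf1r reached the level only through their E14-Sox2TA/WT values. Irs2, an adaptor of the insulin receptor, was the highest at 2.12, from a TPM of 3.77 to 16.4. Igf1r, the receptor that Grb10 binds, went from 6.10 to 14.9, at a log2 ratio of 1.29. At the lowest scaling Igf1r came to 0.93 and Igf2bp3 to 0.86, under 2-fold, so that 2 of the 4 passed only under some scalings. Igfbp2, an IGF-binding protein, was the lowest at -0.78.

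Relatives and partners of the members that are not imprinted showed smaller differences. Of 9 expressed genes of this kind, 6 were higher and 3 lower, with a median of 0.24. Of the 6 that reached a TPM of 10, 0 passed 2-fold, against 4.17% higher and 4.07% lower of the 9094 genes. Plagl2 and Plag1, relatives of Plagl1, stood at 0.54 and 0.27, the Grb10 relatives Grb7 and Grb14 at -0.13 and 0.17, and Sgcb, a sarcoglycan like Sgce, at -0.07. M6pr, the other mannose 6-phosphate receptor beside Igf2r, was the lowest at -0.18.

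Markers of the labelled cell type and of other cells were compared in the same way. The 7 pluripotency markers summed to a TPM of 10953 in E14 and 8158 in E14-Sox2TA/WT cells, with 3 higher, 4 lower and a median log2 ratio of -0.23. Most of that difference lay in Dppa5a (6877 and 4429), while Pou5f1 stood at 1725 and 1759, Utf1 was the highest of the list at 0.24, Sox2 had 372.5 and 274.2 TPM, and Nanog was the lowest at -1.07. All 6 primitive endoderm markers were lower, from Dab2 at -0.27 to Sox17 at -2.09, and their sum went from 46.2 to 17.1. Fibroblast and feeder markers summed to 55.4 and 27.0, with Fap, Lum and Postn (3 of 11) without a read. That sum was led by Thy1, the lowest of the list (40.1 and 11.4), while Twist1 was the highest with a mean TPM over 1, at 0.35, and the collagen genes Col3a1 (15 and 151 reads), Col1a2 and Col5a2 were higher at low levels. Trophoblast markers summed to 65.4 and 42.5, but 3 of the 5 with reads were higher and the median was 0.16. Their sum was led by Tfap2c, the lowest (50.9 and 16.1), whereas Cdx2, the highest, went from 0.474 to 12.2 and Eomes from 2.57 to 7.34. Neural markers summed to 91.4 and 120.9, with 4 higher and 1 lower, a median of 1.49, Pax6 the highest at 2.56 and Tubb3 the lowest at -0.23. In bulk RNA fewer cells of a type and less RNA per cell cannot be told apart, and the part of other cell types in the members' differences was not tested. This bears on Nnat, Peg3 and Plagl1, which are also known from neural tissue, and on Peg10, which is known from the placenta.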

How the data were processed

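Polyadenylated RNA of E14 and E14-Sox2TA/WT cells was sequenced on an Illumina NovaSeq instrument, 1 library per genotype. The authors deposited a gene table for mm10 with whole-number read counts, FPKM (scaled for length and fragment number) and TPM for 24532 genes. The submitters' processing notes name bcl2fastq 2.20.0, Trimmomatic, HISAT2 2.1.0 and StringTie 2.1.3b, without roles. The handling of strand and of shared reads is not given in the sources used here. The deposited counts served for intervals and read ratios, and the deposited TPM for levels.

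Genes were counted when past 2-fold and at a TPM of 10 or more in either library, a fold and filter taken from the study's methods, and TPM ratios were taken without a pseudocount, which is a choice made here. Intervals of ratios were exact (Clopper-Pearson, scipy 1.17.1), tested on simulated data, and those of read pairs used a normal approximation on log counts. The floor of 3 reads was 0.0498 CPM in E14 and 0.0673 CPM in E14-Sox2TA/WT cells. Alternatives were FPKM, CPM, TMM factors (edgeR 4.0.16), median-of-ratios factors (DESeq2 1.42.0), centring, pseudocounts, a GC and length trend removed (13133 of 13269 genes had both), other filters and thresholds. Gene positions and promoter windows came from RefSeq. GENCODE M21 gave the strands, the exons left out of the printed sequences, and the GC content and length of transcripts. Members and lists were chosen with earlier results of these data known. The naming rule took all 10 members, the highest and lowest gene of each list with a mean TPM of at least 1, list members at a member's locus, and neighbours within 250 kb with that mean, of which those that no statement turned on are given as counts. Other list genes, such as Zdbf2, Dppa5a, Eomes, Col3a1, Igf1r, Igfbp3, Igf2bp3, Dnmt1, Uhrf1, Zfp57, Eif2ak4, Plag1, Grb7, Grb14 and Sgcb, were named after their values were seen.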

Additional observations from a re-analysis of the deposited data

How the results depend on the processing

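The number of members more than 2-fold higher was 3 and the number lower was 1 (Grb10). The latter became 0 with a pseudocount of 1, with a TPM minimum of 20, at a 3-fold threshold, or with the counting interval required to lie wholly past 2-fold. The number higher became 6 at 1.5-fold. It was 2 at 3-fold and 2 with the GC and length trend removed, where Peg3 dropped out, and 4 at a TPM minimum of 1 or 5, where Plagl1 entered. At 1.5-fold many other genes pass as well, since Sgce at 1.52-fold ranked only 1231 by ratio among the 9094 genes. Shares over all genes at these other settings were not taken, so the changed counts describe the settings and are not results about the members. The median of the paternally expressed members, 1.32, became 1.18 by FPKM, 1.18 by CPM, 0.95 with the trend removed and 1.14 at a mean TPM of at least 10. The median of the maternally expressed members, -0.31 over Grb10 and Igf2r, became -0.45 by FPKM, -0.45 by CPM and -0.60 with the trend removed, and turned to 0.049 when genes with at least 1 read were kept with a pseudocount of 0.1, which adds Zim1. By construction FPKM and CPM shift all genes, with a median of -0.10 against 0.04 for TPM. Of 80 single member values under 8 alternatives, 3 changed sign, all of Zim1, and 27 left the counting interval. No paired analysis was possible because each genotype had 1 library, and the spread between cultures is unknown.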

Other observations

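In the Kcnq1 domain, the maternally expressed genes other than Slc22a18 also had values, named here after they were seen. Phlda2, which restrains placental growth, had a log2 ratio of TPM of -0.84, between -0.99 and -0.42 over the scalings. Ascl2, a trophoblast regulator, had -1.45 at a TPM of 6.58 and 2.42, under 10 in both libraries, and Cd81 had -0.52. Kcnq1 itself had 9 reads in E14 and 0 in E14-Sox2TA/WT cells. Cdkn1c, an inhibitor of the cell cycle, went the other way at 0.47, and Tssc4 stood at 0.15 (0.03 to 0.28), with a sign that turned under another scaling (-0.017). Kcnq1ot1, the paternal noncoding RNA of the domain, had a ratio of 0.72 at a TPM under 1, which came to 0.076 at the lowest scaling.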
